A study of Mus musculus with 12 samples.

Results

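The *Cyp4a* genes encode cytochrome P450 fatty acid omega-hydroxylases, and the 6 rows of the gene table with the symbols *Cyp4a10*, *Cyp4a12a*, *Cyp4a12b*, *Cyp4a14*, *Cyp4a31* and *Cyp4a32* were taken by name, out of 24532 genes. All 6 passed the filter on low counts, as did 14038 genes in total. The table also held *Cyp4a29* and *Cyp4a30b*, which had 0 counts in every library and were not followed further.

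CYP4A enzymes sit in the membrane of the endoplasmic reticulum and place a hydroxyl group on the terminal, or omega, carbon of fatty acids, with electrons from P450 reductase. The products are oxidized to dicarboxylic acids and shortened in peroxisomes, a route that gains weight in the liver when fatty acids are plentiful. *Cyp4a10* and *Cyp4a14* are textbook targets of the fatty acid receptor PPARα, whereas *Cyp4a12a* and *Cyp4a12b*, whose product is the main arachidonic acid omega-hydroxylase of the mouse, are known for higher expression in males under androgen and pulsatile growth hormone.

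RNA-seq had been run on 12 livers of male C57BL/6 mice in 4 groups of 3. Mice entered the feeding at 10 to 12 weeks of age and received for 5 weeks either the Lieber-DeCarli liquid diet with 5% ethanol by volume, which supplied 36% of the calories, or an isocaloric control diet. *Ahr* HKO mice carried *Ahr* fl/fl with *Alb-Cre*, which is driven by the albumin promoter of hepatocytes and removes exon 2 of the gene for the aryl hydrocarbon receptor (AhR). WT mice were *Ahr* fl/fl littermates without Cre. Every group therefore carried the floxed allele. The authors report the deletion as specific to hepatocytes, which the counts used here cannot check. The groups are called WT-con, WT-EtOH, ALKO-con and ALKO-EtOH, where ALKO stands for *Ahr* HKO in the deposited table. The question was how the omega-hydroxylases responded to alcohol, whether hepatocyte *Ahr* altered that response, and whether *Cyp4a12a* and *Cyp4a12b* went the same way as *Cyp4a10* and *Cyp4a14*.

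Libraries held 46306518 to 74336255 reads on genes. The 6 hepatocyte markers summed to 74119 to 114631 CPM (counts scaled to library size) in every library. The 5 cholangiocyte markers, of which *Krt7* stayed under 1 CPM, summed to 40.3 to 132 CPM in WT-con and 44.5 to 476 CPM in ALKO-con. They summed to 42.8 to 57.3 CPM in WT-EtOH and 37.1 to 67.1 CPM in ALKO-EtOH. The summed Kupffer cell markers ran from 225 to 274 CPM in ALKO-EtOH against 350 to 908 CPM in the other groups. The summed endothelial markers ran from 167 to 187 CPM in ALKO-EtOH and from 247 to 267 CPM in ALKO-con. They ran from 226 to 286 CPM in WT-con and from 175 to 368 CPM in WT-EtOH. *Ahr* itself was read at 16.6 to 20.1 CPM in WT-con, 20.8 to 30.5 in WT-EtOH, 41.3 to 65.5 in ALKO-con and 24.7 to 41.8 in ALKO-EtOH. These counts cover the whole gene and do not separate exon 2, so they check nothing about the deletion, and the genotypes are used as labelled. *Cyp1a2*, a classical AhR target, was at 398 to 617 CPM in WT-con, 992 to 1212 in WT-EtOH, 90.7 to 258 in ALKO-con and 629 to 684 in ALKO-EtOH. On this scale the ALKO-EtOH livers lay above every WT-con liver. On the deposited FPKM, which are also scaled by gene length, these 2 groups overlapped (306 to 336 against 196 to 309). The lower level of *Cyp1a2* in ALKO-con than in WT-con (log2 FC −1.67, edgeR adjusted *P* = 0.0197) was not called without WT-con liver 1 or ALKO-con liver 2 (−1.47 and −1.48). In whole liver, fewer cells of a type and less RNA per cell cannot be told apart.

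The 6 genes lie within 323.5 kb of chromosome 4 of GRCm38.p6, and *Cyp4a14* is the single member on the minus strand. In order along the chromosome they are *Cyp4a12a* (chr4:115299046-115332815), *Cyp4a12b* (chr4:115411624-115439034), *Cyp4a14* (chr4:115486200-115496158), *Cyp4a10* (chr4:115518287-115533649), *Cyp4a31* (chr4:115563627-115579015) and *Cyp4a32* (chr4:115600927-115622507). These spans are those of RefSeq. The coding sequences of *Cyp4a12a* and *Cyp4a12b* were 98.49% identical, with 1504 of 1527 aligned bases shared. *Cyp4a10* was 96.6% identical to *Cyp4a31* and 97.19% to *Cyp4a32*, but 80.16% to *Cyp4a12a*. *Cyp4a14* stood apart from all others at 74.93% to 75.98%. The stretch of 90 coding bases around the heme-binding loop, with the codon of the cysteine that holds the heme iron, shows these 3 sequence types side by side. It was read from the GENCODE M21 transcripts on GRCm38, it joins the end of exon 11 to the start of exon 12, and capitals mark bases that differ from *Cyp4a12a*.
Cyp4a12a (chr4:115328956-115331876, plus strand): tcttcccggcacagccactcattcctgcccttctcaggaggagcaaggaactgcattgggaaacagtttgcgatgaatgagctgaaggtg
Cyp4a12b (chr4:115435210-115438099, plus strand): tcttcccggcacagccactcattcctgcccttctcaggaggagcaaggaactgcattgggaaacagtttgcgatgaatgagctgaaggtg
Cyp4a10 (chr4:115529472-115532573, plus strand): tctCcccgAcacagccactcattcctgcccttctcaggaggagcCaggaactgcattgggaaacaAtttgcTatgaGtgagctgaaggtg
Cyp4a31 (chr4:115574920-115577978, plus strand): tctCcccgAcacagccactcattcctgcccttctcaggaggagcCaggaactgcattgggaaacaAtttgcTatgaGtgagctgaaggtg
Cyp4a32 (chr4:115614850-115621476, plus strand): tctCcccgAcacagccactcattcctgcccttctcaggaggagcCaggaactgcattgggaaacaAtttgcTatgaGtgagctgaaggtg
Cyp4a14 (chr4:115487269-115489835, minus strand): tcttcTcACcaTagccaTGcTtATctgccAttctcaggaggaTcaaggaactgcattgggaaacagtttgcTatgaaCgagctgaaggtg
The *Cyp4a12a* and *Cyp4a12b* stretches had 0 differences, *Cyp4a10*, *Cyp4a31* and *Cyp4a32* shared the same 6, and *Cyp4a14* had 13.

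**Figure D1:**
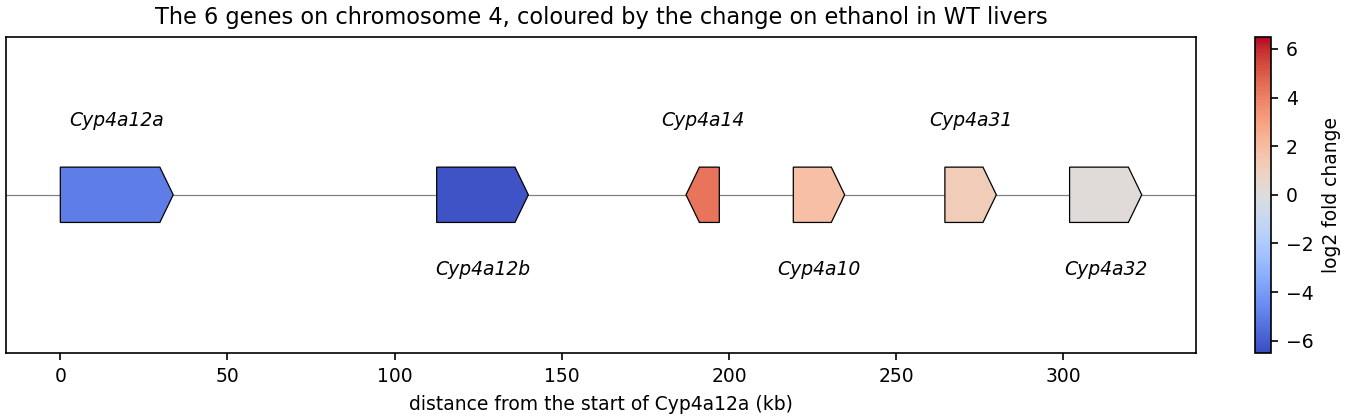
The 6 *Cyp4a* genes drawn to scale as arrows in their direction of transcription, along the distance in kb from the start of *Cyp4a12a*. The fill is the log2 fold change of WT-EtOH against WT-con, blue for *Cyp4a12a* (−4.98) and *Cyp4a12b* (−6.28) and orange to red for *Cyp4a14* (4.35), *Cyp4a10* (1.85) and *Cyp4a31* (1.22), of which *Cyp4a10* and *Cyp4a31* did not pass the test.

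Near-identical genes matter for the counts, since a read that fits both copies cannot be placed by itself. Of all windows of 100 bases in the transcript, 35.8% in *Cyp4a12a* and 36.2% in *Cyp4a12b* also occurred in the other gene. The share was 12.7% for *Cyp4a10*, 8.22% for *Cyp4a31* and 20.1% for *Cyp4a32*, each within this trio, and 0 for *Cyp4a14*. Sequencing was paired-end, and a mate may place such a read, so these shares do not measure the error of the counts. Single values of *Cyp4a12a* and *Cyp4a12b*, and of the *Cyp4a10* trio, are uncertain to an unknown extent. Each comparison was also run with the near-identical genes summed. Where the copies can be told apart is shown by a window of 60 bases in exon 6, in which the capitals mark the 4 positions that differ between *Cyp4a12a* and *Cyp4a12b* out of 23 in the coding sequence.
Cyp4a12a (chr4:115326628-115326687, plus strand): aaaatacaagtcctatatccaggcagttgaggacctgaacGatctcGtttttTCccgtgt
Cyp4a12b (chr4:115432881-115432940, plus strand): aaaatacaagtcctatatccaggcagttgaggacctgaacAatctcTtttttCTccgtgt
For the *Cyp4a10* trio the window lies in exon 2, and the capitals mark the 9 positions at which the 3 genes are not all alike, out of 77 in the coding sequence.
Cyp4a10 (chr4:115519640-115519699, plus strand): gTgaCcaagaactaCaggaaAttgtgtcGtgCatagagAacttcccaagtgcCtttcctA
Cyp4a31 (chr4:115565020-115565079, plus strand): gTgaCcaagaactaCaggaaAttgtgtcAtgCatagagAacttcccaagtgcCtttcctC
Cyp4a32 (chr4:115602270-115602329, plus strand): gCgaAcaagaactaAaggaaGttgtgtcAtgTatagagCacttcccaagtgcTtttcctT

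The next paragraphs give levels as FPKM, the authors' fragment counts scaled by gene length and library size, a scale on which genes of different length can be compared. On the control diet, *Cyp4a12a* was the leading member of WT livers with 97.0 ± 32.3 FPKM (SD, n = 3). *Cyp4a12b* followed with 42.0 ± 12.3, *Cyp4a10* with 39.7 ± 27.4, *Cyp4a32* with 17.1 ± 5.75, *Cyp4a14* with 13.4 ± 11.4 and *Cyp4a31* with 3.28 ± 1.59. *Cyp4a12a* lay above *Cyp4a12b* in every liver and their ranges did not meet, whereas each later pair of neighbours overlapped in range and is not ordered beyond its spread. Among WT-con livers, the range from lowest to highest was 1.95-fold for *Cyp4a12a* and 1.82-fold for *Cyp4a12b*, but 6.81-fold for *Cyp4a10* and 12.9-fold for *Cyp4a14*. The third liver of that group was the lowest for all 6 genes.

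**Figure D2:**
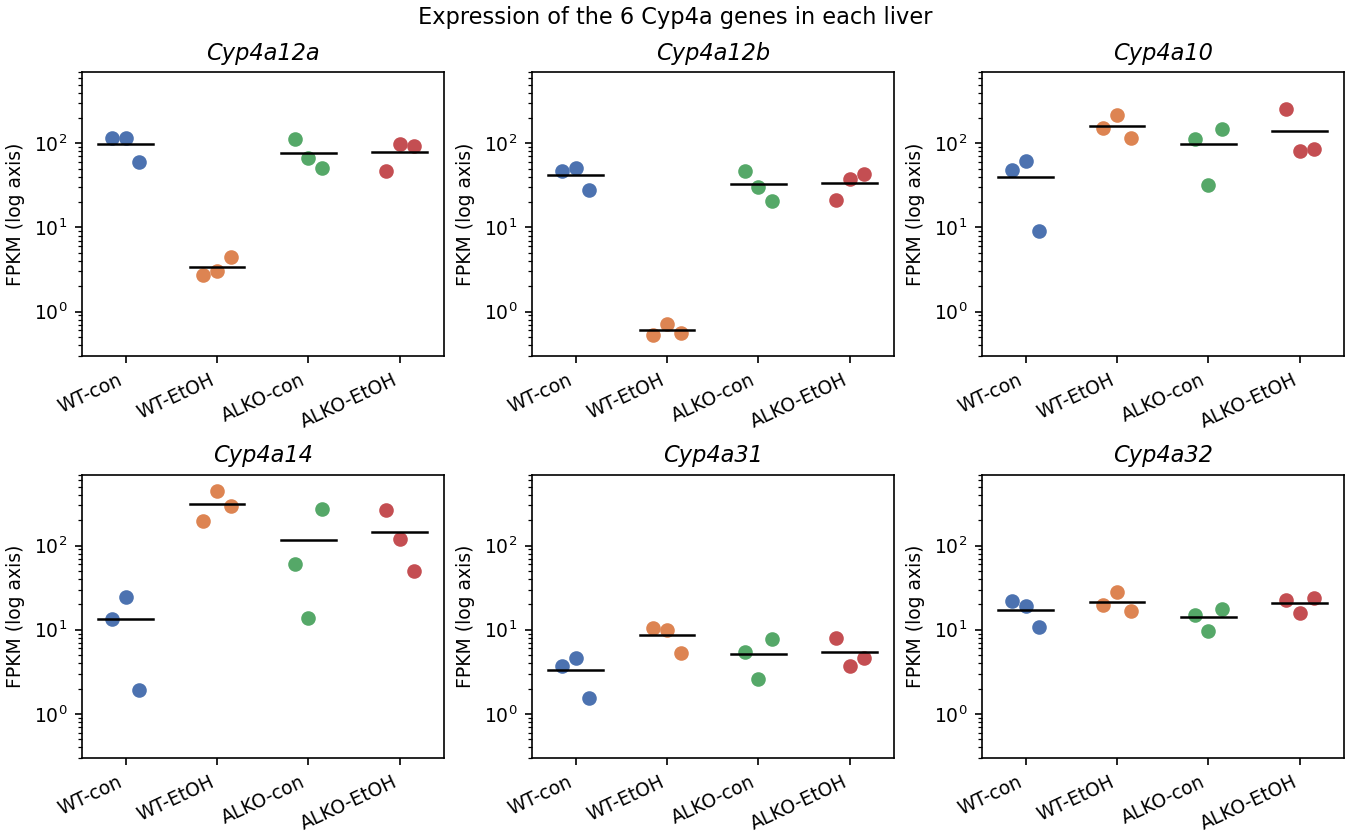
FPKM of each *Cyp4a* gene in each liver, on a log axis, with a point per liver in the order of the replicate numbers and a bar at the group mean of 3 livers. The WT-EtOH livers sit far below the other groups for *Cyp4a12a* (2.72 to 4.49 FPKM) and *Cyp4a12b* (0.521 to 0.718 FPKM), and at or above 116 FPKM for *Cyp4a10* and 196 FPKM for *Cyp4a14*.

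In WT mice, alcohol left little *Cyp4a12* transcript and much *Cyp4a14*. *Cyp4a12a* fell 31.6-fold and *Cyp4a12b* fell 77.8-fold, while *Cyp4a14* rose 20.4-fold. *Cyp4a10* and *Cyp4a31* were higher in each WT-EtOH liver than in any WT-con liver without passing the test, and *Cyp4a32* overlapped. A call required an adjusted *P* under 0.05 in edgeR's quasi-likelihood test with Benjamini-Hochberg adjustment over all 14038 genes and a fold change (FC) above 1.5. It was met by 3 of the 6 members, against 6.76% of all genes tested. The 2 members that fell compare with 3.4% of genes called lower, and the 1 that rose with 3.36% called higher.

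*Cyp4a12a*, the arachidonic acid omega-hydroxylase, was at 117, 115 and 59.8 FPKM in the WT-con livers and at 2.72, 3.07 and 4.49 FPKM in the WT-EtOH livers. Every ethanol liver lay far below the lowest control liver. Its log2 FC was −4.98 (SE 0.345, 95% interval −5.79 to −4.17), with an adjusted *P* of 0.000979 by edgeR.

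*Cyp4a12b*, its near-identical neighbour, was at 47.1, 50.9 and 27.96 FPKM in WT-con and at 0.521, 0.718 and 0.556 FPKM in WT-EtOH. The ethanol values rested on 67, 96 and 80 counts, against 3446 to 7326 counts in the control livers. The log2 FC was −6.28 (SE 0.288, 95% interval −6.96 to −5.61; edgeR adjusted *P* = 0.000292). The ratio of *Cyp4a12a* to *Cyp4a12b* FPKM was 2.14 to 2.48 in WT-con and 4.28 to 8.09 in WT-EtOH, so on ethanol less *Cyp4a12b* remained per *Cyp4a12a*. With their counts summed, the pair fell by 5.26 on the log2 scale (SE 0.324; edgeR adjusted *P* = 0.000702). The part that shared reads have in the ratio was not tested.

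*Cyp4a14*, the PPARα target whose coding sequence stands apart, was at 13.6, 24.7 and 1.91 FPKM in WT-con and at 196, 444 and 292 FPKM in WT-EtOH. The groups did not overlap, and among all genes 17.3% were higher and 16% lower in every WT-EtOH liver than in any WT-con liver. The log2 FC was 4.35 (SE 0.854, 95% interval 2.35 to 6.35; edgeR adjusted *P* = 0.0249). The call was lost without WT-con liver 1 (log2 FC 4.35, adjusted *P* = 0.0984) and without WT-EtOH liver 2 (4.05, adjusted *P* = 0.0547), and without WT-con liver 2 the estimate was 5.16, all in the same edgeR test.

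*Cyp4a10*, the other PPARα target, was at 47.9, 62.1 and 9.12 FPKM in WT-con and at 151, 218 and 116 FPKM in WT-EtOH. The lowest ethanol liver lay above the highest control liver. The log2 FC of 1.85 (SE 0.62, 95% interval 0.40 to 3.31) did not pass, with an edgeR adjusted *P* of 0.11.

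*Cyp4a31* was at 3.68, 4.63 and 1.53 FPKM in WT-con and at 10.5, 9.84 and 5.34 FPKM in WT-EtOH, again without overlap. Its log2 FC of 1.22 (SE 0.423, 95% interval 0.23 to 2.21) had an edgeR adjusted *P* of 0.121, and DESeq2 called it (1.22, adjusted *P* = 0.0194). *Cyp4a32* was at 21.7, 19.1 and 10.7 FPKM in WT-con and at 19.6, 28.2 and 16.5 FPKM in WT-EtOH. These groups overlapped, with a log2 difference of 0.16 (SE 0.282, 95% interval −0.51 to 0.82; edgeR adjusted *P* = 0.768). The interval leaves room for a change in either direction. Summed, the near-identical *Cyp4a10*, *Cyp4a31* and *Cyp4a32* had a log2 FC of 1.52 (SE 0.490; edgeR adjusted *P* = 0.101). The summed stellate cell markers ran from 219 to 300 CPM in WT-con and from 313 to 359 CPM in WT-EtOH. Of the 7 markers 1 (*Lrat*) was called higher and 0 lower, against 3.36% and 3.4% of all genes. The part of these markers in the values of the members was not tested.

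The same diet in *Ahr* HKO mice gave no called change in any of the 6 members, with 22% of all genes called, 10.3% higher and 11.7% lower. At unadjusted *P* under 0.05 the edgeR count of members was 0 as well, and DESeq2 called 0. The livers of both diets overlapped in range for all 6 genes, whereas among all genes 24.6% were higher and 25.2% lower in every ALKO-EtOH liver than in any ALKO-con liver.

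*Cyp4a12a* was at 112, 67.4 and 50.9 FPKM in ALKO-con and at 47.0, 98.2 and 94.0 FPKM in ALKO-EtOH. The log2 difference was 0.13 (SE 0.361, 95% interval −0.71 to 0.98; edgeR adjusted *P* = 0.805). *Cyp4a12b* was at 46.4, 30.0 and 20.9 FPKM in ALKO-con and at 21.3, 38.0 and 43.2 FPKM in ALKO-EtOH. Both genes overlapped between the diets, and the interval for *Cyp4a12b*, −0.65 to 0.96 around a log2 difference of 0.16, excludes a fall of the size seen in WT (edgeR adjusted *P* = 0.758).

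*Cyp4a14* was at 60.7, 13.9 and 273 FPKM in ALKO-con and at 268, 121 and 49.3 FPKM in ALKO-EtOH. Its spread within ALKO-con was 19.7-fold, the widest of any member in any group. The log2 difference of 0.33 had a 95% interval of −2.08 to 2.73 (SE 1.02; edgeR adjusted *P* = 0.835), which is wide enough to hold a rise or a fall of several fold. *Cyp4a10* was at 113, 32.04 and 149.5 FPKM in ALKO-con and at 257, 81.0 and 86.6 FPKM in ALKO-EtOH. Its groups overlapped too, with a log2 difference of 0.56 (SE 0.654, 95% interval −0.98 to 2.09; edgeR adjusted *P* = 0.545). Without ALKO-EtOH liver 1, the highest for both genes within its group, the differences were −0.45 for *Cyp4a14* and −0.19 for *Cyp4a10*.

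*Cyp4a31* was at 5.41, 2.57 and 7.66 FPKM in ALKO-con and at 7.92, 3.66 and 4.56 FPKM in ALKO-EtOH, a log2 difference of 0.09 (SE 0.45). *Cyp4a32* was at 15.2, 9.63 and 17.5 FPKM in ALKO-con and at 22.6, 15.6 and 23.9 FPKM in ALKO-EtOH. Its log2 difference was 0.61 (SE 0.283, 95% interval −0.05 to 1.28; edgeR adjusted *P* = 0.139), and it was called only with the replicate number as a block (0.65, adjusted *P* = 0.0249). All 8 Kupffer cell and leukocyte markers fell in this comparison, as did 3 of 6 endothelial markers (*Cdh5*, *Pecam1* and *Stab2*), against 11.7% of all genes. The part of these markers in the values of the members was not tested.

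The genotypes were next compared on the control diet. None of the 6 members was called, against 19.9% of all genes, 9.77% higher and 10.1% lower. All 6 overlapped in range between the genotypes, while 23.3% of all genes were higher and 23.9% lower without overlap. At unadjusted *P* under 0.05, edgeR gave 1 member, *Cyp4a14*, with a log2 difference of 3.15 (SE 1.22, 95% interval 0.28 to 6.02; adjusted *P* = 0.0922), and DESeq2 called 0. With all 12 livers in a single edgeR fit *Cyp4a14* was called (3.14, adjusted *P* = 0.0476). The ALKO-con livers with 60.7 and 273 FPKM lay above every WT-con liver, and the one with 13.9 FPKM lay among them. Without ALKO-con liver 3 the difference was 1.43 on the log2 scale (edgeR adjusted *P* = 0.319).

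*Cyp4a12a* differed by −0.37 on the log2 scale between the genotypes on the control diet (SE 0.342, 95% interval −1.17 to 0.44; edgeR adjusted *P* = 0.462). *Cyp4a12b* differed by −0.40 (SE 0.317, 95% interval −1.14 to 0.34; edgeR adjusted *P* = 0.379). *Cyp4a10* differed by 1.31 (SE 0.763, 95% interval −0.47 to 3.10; edgeR adjusted *P* = 0.235), *Cyp4a31* by 0.66 (SE 0.504) and *Cyp4a32* by −0.29 (SE 0.323).

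On ethanol the genotypes parted at the *Cyp4a12* genes. *Cyp4a12a* was 27.1-fold and *Cyp4a12b* 66.3-fold higher in ALKO-EtOH than in WT-EtOH, and these 2 of 6 members were called against 1.06% of all genes, 0.684% higher and 0.378% lower. For *Cyp4a12a* the log2 FC was 4.76 (SE 0.365, 95% interval 3.91 to 5.62; edgeR adjusted *P* = 0.0067). For *Cyp4a12b* it was 6.05 (SE 0.328, 95% interval 5.28 to 6.82; edgeR adjusted *P* = 0.0023). The 3 livers of ALKO-EtOH were all above those of WT-EtOH for both genes, with 13.7% of all genes showing such a separation upwards.

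The PPARα targets were not separated by genotype on ethanol. *Cyp4a10* differed by 0.03 on the log2 scale (SE 0.454, 95% interval −1.04 to 1.09; edgeR adjusted *P* = 0.981), and the sign turned under 4 other settings and 2 left-out livers. *Cyp4a14* differed by −0.86 (SE 0.554, 95% interval −2.17 to 0.44; edgeR adjusted *P* = 0.406). *Cyp4a31* differed by −0.45 (SE 0.344) and *Cyp4a32* by 0.18 (SE 0.222), neither called.

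The difference between the diet effects was tested directly as the interaction of genotype and diet over all 12 livers. It passed for 2 of the 6 members, with 22.3% of all genes called, 11.2% higher and 11.1% lower. The diet effect in *Ahr* HKO exceeded that in WT by 5.13 on the log2 scale for *Cyp4a12a* (SE 0.548, 95% interval 3.92 to 6.33; edgeR adjusted *P* = 0.000314). For *Cyp4a12b* it exceeded it by 6.45 (SE 0.505, 95% interval 5.34 to 7.56; edgeR adjusted *P* = 0.000112). Both calls were kept in each of the 20 alternatives, which included 12 with a liver left out.

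For *Cyp4a14* the difference of diet effects was −3.996 (SE 1.48, 95% interval −7.23 to −0.76; edgeR adjusted *P* = 0.0735). It was called by DESeq2 (−4.02, adjusted *P* = 0.0212) and without ALKO-con liver 2 (−4.53, edgeR adjusted *P* = 0.0338), so the call for this gene depended on the setting. *Cyp4a10* had −1.27 (SE 0.996, 95% interval −3.46 to 0.91; edgeR adjusted *P* = 0.387). *Cyp4a31* had −1.11 (SE 0.685) and *Cyp4a32* 0.47 (SE 0.435), neither called.

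**Figure D3:**
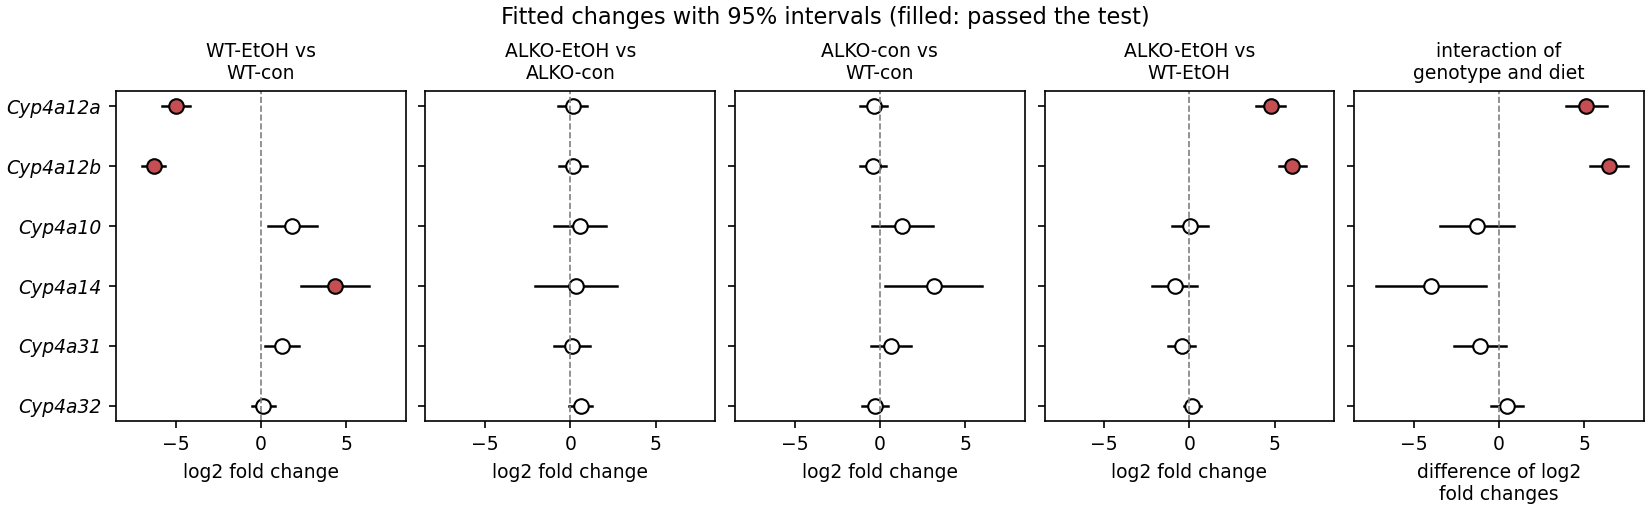
Fitted log2 fold changes of the 6 *Cyp4a* genes with 95% intervals, 1 panel per comparison and the difference of diet effects at the right, with filled points for genes that passed the test. *Cyp4a12a* and *Cyp4a12b* are far below 0 for ethanol in WT (−4.98 and −6.28), close to 0 for ethanol in *Ahr* HKO (0.13 and 0.16), and far above 0 in the 2 panels at the right, while the wide bars of *Cyp4a14* cross or approach 0 outside the first panel.

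The make-up of *Cyp4a* expression was described per liver from FPKM sums, with no test. In WT-con, *Cyp4a12a* and *Cyp4a12b* together supplied 65.4%, 59.97% and 79.1% of the summed FPKM of the 6 genes. In WT-EtOH they supplied 0.853%, 0.537% and 1.16%, while *Cyp4a10* and *Cyp4a14* supplied 91.2%, 94.1% and 93.8%. The sum itself was 250.5, 276 and 111 FPKM in WT-con and 379.9, 705 and 435 FPKM in WT-EtOH, so total transcript was higher in each ethanol liver although its main control members were nearly lost.

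In ALKO-con the *Cyp4a12* share was 44.9%, 62.6% and 13.8%, and in ALKO-EtOH it was 10.9%, 38.1% and 45.5%. These livers lay between the WT groups, with the diets overlapping, except that ALKO-con liver 2 fell within the range of WT-con. The log2 ratio of *Cyp4a12a* plus *Cyp4a12b* to *Cyp4a10* plus *Cyp4a14* was 1.77 ± 1.07 (SD, n = 3) in WT-con and −6.81 ± 0.56 in WT-EtOH. It was −0.54 ± 1.85 in ALKO-con and −1.17 ± 1.57 in ALKO-EtOH. *Cyp4a14* over *Cyp4a10* was 0.209 to 0.398 in WT-con, 1.298 to 2.52 in WT-EtOH, 0.432 to 1.83 in ALKO-con and 0.570 to 1.49 in ALKO-EtOH.

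**Figure D4:**
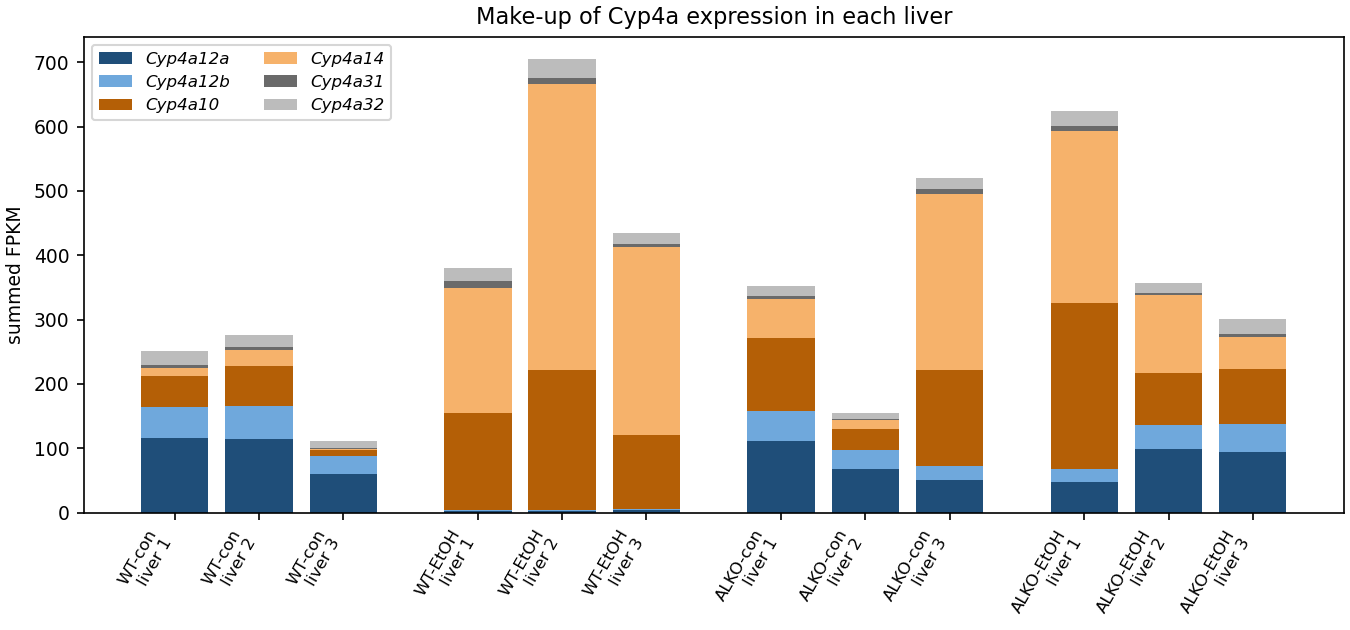
Stacked bars of FPKM of the 6 *Cyp4a* genes in each of the 12 livers, from 0. The blue *Cyp4a12a* and *Cyp4a12b* segments are visible in every liver except those of WT-EtOH, where they make up 0.537% to 1.16% of the bar, and the orange *Cyp4a10* and *Cyp4a14* segments range widely within each *Ahr* HKO group.

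The members were also set against each other over the 12 livers. Pearson's r of log2 CPM was 0.995 for *Cyp4a12a* with *Cyp4a12b*, which share windows of 100 bases. It was 0.943 for *Cyp4a10* with *Cyp4a14*, which share no window of 100 bases, 0.945 for *Cyp4a10* with *Cyp4a31* and 0.692 for *Cyp4a10* with *Cyp4a32*, so the order of these values was not that of the sequence identities. Between the sides it was −0.369 for *Cyp4a10* with *Cyp4a12a* and −0.538 for *Cyp4a14* with *Cyp4a12a*. These are descriptions over livers that share group, diet and library. Within groups, the order of the 3 livers by FPKM was the same as for *Cyp4a10* in 3 of 4 groups for *Cyp4a31*, in 2 for *Cyp4a14*, in 2 for *Cyp4a32*, in 1 for *Cyp4a12b* and in 0 for *Cyp4a12a*.

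Among 11720 genes with a mean of at least 1 CPM, those whose log2 CPM was most like that of *Cyp4a12a* over the 12 livers were *Mup21* (r = 0.956), *Slco1a1* (0.939), *C6* (0.938), *Pfkfb1* (0.936) and *Nsun2* (0.932). *Mup21* belongs to the major urinary proteins, *Slco1a1* is an organic anion transporter, *C6* a complement component and *Pfkfb1* the liver form of the enzyme that sets fructose bisphosphate levels. Since these genes were chosen for following *Cyp4a12a* over the same livers, their values are a description. The log2 FC in WT on ethanol was −2.46 for *Mup21*, −3.88 for *C6* and −1.55 for *Pfkfb1*. *Slco1a1* had −5.38 and was not called, with 0.680, 0.954 and 22.9 CPM in WT-EtOH against 251 to 452 CPM in WT-con. *Nsun2* was not called either and differed little, with 65.8 to 71.5 CPM in WT-EtOH against 83.1 to 83.9 CPM in WT-con. The genes most like *Cyp4a10* were *Rbm15* (r = 0.883), *Kyat3* (0.881), *Tatdn1* (0.863), *Ttpa* (0.853) and *Atf1* (0.851), and none of these 5 met both thresholds in any comparison.

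A list of genes known for male-biased liver expression was set beside *Cyp4a12a*. In WT on ethanol 13 of its 16 members fell and 0 rose, against 3.4% and 3.36% of all genes. The median log2 FC was −2.67 against 0.03 over all genes tested. *Cyp7b1*, an oxysterol hydroxylase, fell by 2.66 and *Hsd3b5*, a steroid-metabolizing enzyme of male liver, by 9.89, or by 11.60 without WT-EtOH liver 3. *Hsd3b5* had 0, 9 and 38 counts in WT-EtOH against 11742 to 13519 in WT-con, so the size of its fall rests on few counts. *Elovl3*, a fatty acid elongase, fell by 3.71, a call lost without WT-con liver 1, 2 or 3 (−3.71, −3.64 and −3.79, edgeR adjusted *P* of 0.0529, 0.0556 and 0.0508), and −4.83 without WT-EtOH liver 3. The median r of this list with *Cyp4a12a* over 12 livers was 0.84, with 12 of 16 genes above 0.5, and with *Cyp4a10* it was −0.59.

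In *Ahr* HKO on ethanol 4 of these 16 genes rose (*Elovl3*, *Cyp2d9*, *Gstp1* and *Susd4*) and 1 fell (*Moxd1*), against 10.3% and 11.7% of all genes. The median was 0.40 against −0.02 over all genes. The *Elovl3* rise was lost without ALKO-con liver 1 or 3 or ALKO-EtOH liver 1 or 3. On the control diet, *Ahr* HKO livers had 9 of the 16 lower than WT and 0 higher, against 10.1% and 9.77% of all genes. The median was −1.30 against 0.00 over all genes, whereas *Cyp4a12a* and *Cyp4a12b* were not called there. *Hsd3b5* differed by −3.78 on the log2 scale from WT-con to ALKO-con (edgeR adjusted *P* = 0.00112). The interaction passed for 13 of 16, all upwards, against 11.2% of all genes called upwards, with a median of 2.78 against −0.03.

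Genes with female-biased expression were followed as well, 14 of 18 having passed the filter. In WT on ethanol 7 rose, among them *Cyp2a4*, *Cyp2b13*, *Cyp2b9* and *Acot3*, and 0 fell, against 3.36% and 3.4% of all genes. *Cyp2b9* was at 0 counts in all WT-con livers and at 578 ± 220.1 CPM (SD, n = 3) in WT-EtOH, and *Cyp2a4* went from 0 counts to 344 ± 132 CPM. No fold is given for these against 0. In *Ahr* HKO on ethanol 2 rose (*Cyp2b13* and *Cyp3a44*), with 10.3% of all genes called higher. *Cyp2b9* was not called there, with 0, 0 and 33.7 CPM in ALKO-con and 265, 48.1 and 70.2 CPM in ALKO-EtOH, without overlap. The interaction passed for 2 of 14, *Cyp2a4* and *Cyp2b9*, both downwards, against 11.1% of all genes called downwards. For both genes it sets a WT fold against 0 counts beside that in *Ahr* HKO, so no size is given and its sign is not read as a result. The *Cyp2b9* call held only without ALKO-con liver 1 or 2 among the fits with a liver left out, and that of *Cyp2a4* was lost without ALKO-con liver 3.

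PPARα target genes other than the *Cyp4a* members were followed as a list. In WT on ethanol 6 of 39 tested rose and 0 fell, against 3.36% and 3.4% of all genes. The median log2 FC was 0.14 against 0.03 over all genes. The 6 were *Cd36*, *Pdk4*, *Angptl4*, *Acot2*, *Acot3* and *Acot4*. The *Angptl4* call (0.75) was lost without WT-con liver 1, 2 or 3 (0.75, 0.78 and 0.72, edgeR adjusted *P* of 0.0585, 0.0583 and 0.0637). *Pdk4*, the kinase that shuts pyruvate dehydrogenase, rose by 2.48 (edgeR adjusted *P* = 0.00297) and *Acot3*, a peroxisomal acyl-CoA thioesterase that is also on the female-biased list, by 4.54 (edgeR adjusted *P* = 0.00674; 3.90 without WT-EtOH liver 2). *Ehhadh*, an enzyme of peroxisomal beta-oxidation, had 0.45 (SE 0.275) and was not called. *Ppara* itself had −0.44 (SE 0.187; edgeR adjusted *P* = 0.184) and its partner *Rxra* −0.19 (SE 0.0973).

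In *Ahr* HKO on ethanol 8 of the 39 rose and 3 fell, with a median of 0.31 against −0.02 over all genes, of which 10.3% were called higher and 11.7% lower. *Acot1*, a cytosolic thioesterase, rose by 1.83 and *Acaa1b*, a peroxisomal thiolase, by 1.2002, whereas *Cpt1a*, the gate of mitochondrial beta-oxidation, fell by 0.99 and the lipid droplet protein *Plin2* by 1.21 on the log2 scale, with edgeR adjusted *P* of 0.00853, 0.00723, 0.00722 and 0.00323. Over the 12 livers the list's median r with *Cyp4a10* was 0.44, with 16 of 39 above 0.5, and with *Cyp4a12a* −0.13. Between the genotypes, 5 of the 39 were higher and 4 lower in ALKO-con than in WT-con, among them *Plin2* at 1.07 (edgeR adjusted *P* = 0.0101), against 9.77% and 10.1% of all genes. On ethanol 1 of the 39, *Plin5*, was higher in *Ahr* HKO, against 0.684% of all genes, and the interaction passed for 4 upwards and 5 downwards, against 11.2% and 11.1%.

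**Figure D5:**
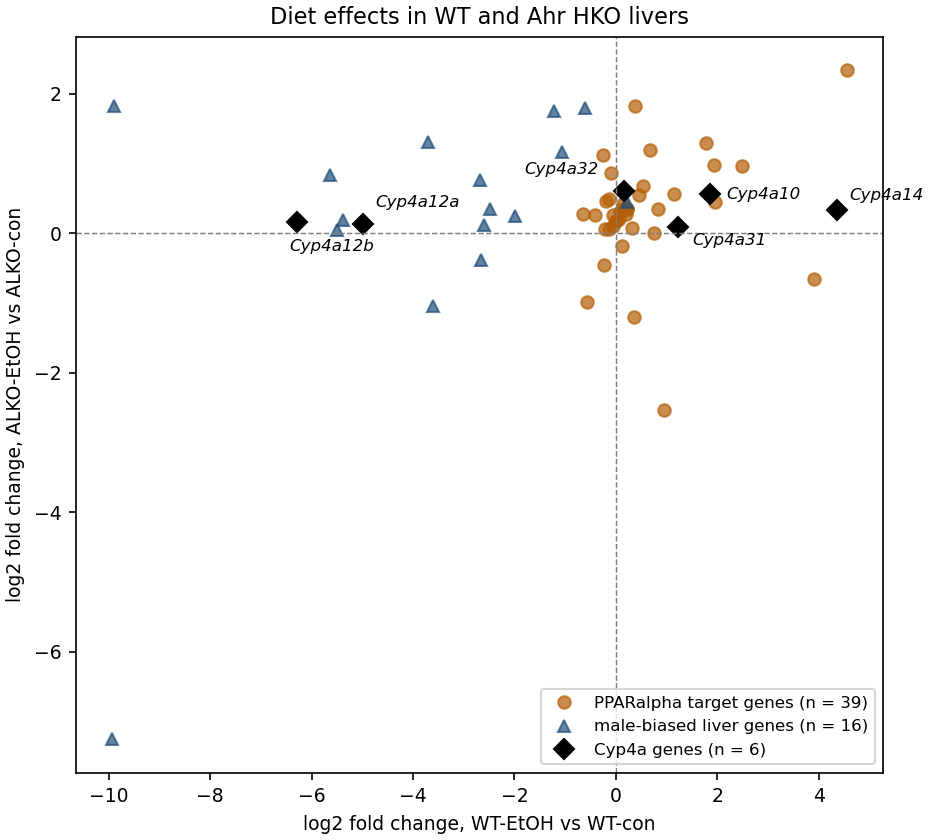
Log2 fold change on ethanol in *Ahr* HKO (vertical) against that in WT (horizontal), each point a gene, for 39 PPARα target genes (circles), 16 male-biased genes (triangles) and the 6 *Cyp4a* genes (diamonds). *Cyp4a12a* and *Cyp4a12b* lie at the left among the male-biased genes, whose WT median is −2.67, and *Cyp4a14* lies far to the right at 4.35, while all 6 members stay between 0.09 and 0.61 on the vertical axis.

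The enzymes that work with CYP4A were taken as a list of 22 tested genes, from P450 reductase to peroxisomal chain shortening. In WT on ethanol 5 rose (*Adh1*, *Abcd2*, *Nudt19*, *Acot3* and *Acot4*) and 1 fell (*Nudt7*), against 3.36% and 3.4% of all genes, with a median of 0.14. In *Ahr* HKO on ethanol 6 rose and 0 fell, with a median of 0.55 and 10.3% of all genes called higher, among them *Aldh3a2*, the fatty aldehyde dehydrogenase, at 0.67 and *Abcd3*, a peroxisomal fatty acid importer, at 0.66, with edgeR adjusted *P* of 0.0154 and 0.0139. Without ALKO-con liver 2 *Aldh3a2* was at 0.58 and without ALKO-EtOH liver 1 *Abcd3* was at 0.58, both under the fold threshold. On the control diet 0 were higher and 4 lower in *Ahr* HKO, against 9.77% and 10.1% of all genes. The lower ones included *Abcd3* at −0.90 (edgeR adjusted *P* = 0.00345). *Abcd3* was at 464 ± 38.4 CPM in WT-con, 248 ± 27.96 in ALKO-con and 392 ± 43.8 in ALKO-EtOH (SD, n = 3). *Por*, which encodes the reductase, was not called in any comparison.

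Of the 8 other *Cyp4* genes tested, 1 fell (*Cyp4f17*) and 0 rose in WT on ethanol, and 3 rose (*Cyp4v3*, *Cyp4f15* and *Cyp4f13*) in *Ahr* HKO on ethanol, with 3.4% of all genes called lower in WT and 10.3% called higher in *Ahr* HKO. On the control diet *Cyp4b1*, *Cyp4v3* and *Cyp4f15* were lower in *Ahr* HKO than in WT, with 10.1% of all genes called lower. The *Cyp4v3* call was lost without WT-con liver 1 or ALKO-con liver 1 or 2 (−0.53, −0.55 and −0.71). *Cyp4f15*, an omega-hydroxylase of the related CYP4F branch, rose by 1.15 in *Ahr* HKO (SE 0.218; edgeR adjusted *P* = 0.00939) and had −0.39 in WT (SE 0.126; edgeR adjusted *P* = 0.0987), with an interaction of 1.56 (edgeR adjusted *P* = 0.00267). *Cyp4f15* was lower in ALKO-con than in WT-con (log2 FC −1.13, edgeR adjusted *P* = 0.00701), and was at 169 ± 8.31 CPM in WT-con and 171 ± 17.6 CPM in ALKO-EtOH (SD, n = 3). *Cyp4a12a* and *Cyp4a12b* were not called on the control diet.

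Of the 24 receptors and partners that stand upstream, 3 rose in WT on ethanol (*Nr1i3*, *Pparg* and *Ppargc1a*) and 0 fell, with 3.36% of all genes called higher. The *Ppargc1a* call (0.60, edgeR adjusted *P* = 0.0417) was lost on leaving out any single liver of the comparison (0.51 to 0.72). In *Ahr* HKO on ethanol 5 rose and 2 fell, against 10.3% and 11.7% of all genes. On the control diet 2 were higher and 4 lower in *Ahr* HKO than in WT, against 9.77% and 10.1% of all genes. Between genotypes on ethanol 1 was higher (*Bcl6*) and 2 lower (*Cux2* and *Pparg*), against 0.684% and 0.378%. On ethanol *Bcl6*, a repressor with a known part in male-biased liver expression, was higher in ALKO-EtOH than in WT-EtOH by 3.22 on the log2 scale (SE 0.209; edgeR adjusted *P* = 0.00312), with 86.7 to 98.2 CPM against 7.69 to 13.2 CPM. *Cux2*, which is female-biased in mouse liver, was lower by 3.14 (SE 0.531; edgeR adjusted *P* = 0.0489), a call lost without WT-EtOH liver 1 or 2 or any single ALKO-EtOH liver. *Cux2* counts were few, 9 to 13 in ALKO-EtOH against 51 to 144 in WT-EtOH, and were 0, 13 and 293 in the ALKO-con livers. *Hnf4a*, *Stat5b* and *Ghr* were not called in WT on ethanol. *Hnf4a* was higher in ALKO-con than in WT-con by 0.97 (edgeR adjusted *P* = 0.00331). *Ghr* differed by −0.60 there and by 0.61 in *Ahr* HKO on ethanol, and the first call was lost without liver 1 or 2 of either group, the second without ALKO-con liver 1 or 2 or ALKO-EtOH liver 1 or 2.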

How the data were processed

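Gene tables of 12 mouse livers were used, 1 library per liver. The authors deposited raw read counts, FPKM and TPM per gene and library. The submitters' processing notes name FastQC 0.11.7, Trimmomatic 0.38, HISAT2 2.1.0, Bowtie2 2.3.4.1, StringTie 1.3.4d and the build mm10, with no role or order, and how reads of near-identical genes were assigned is not given in the sources used here. Deposited counts were tested in R 4.3.3 with edgeR 4.0.16 (quasi-likelihood, TMM factors 0.925 to 1.16, filterByExpr over the 4 groups), with Benjamini-Hochberg adjustment over 14038 genes. Each pair comparison used its 6 libraries and the interaction all 12. Calls required an adjusted *P* under 0.05 and, except for the interaction, an FC above 1.5. CPM are on TMM-scaled library sizes. Deposited FPKM gave levels and sums, and deposited TPM served as an alternative for the ratio of sums.

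Libraries held 46306518 to 74336255 counts, so 3 counts, taken as the detection floor, equal 0.0425 to 0.0676 CPM, for counting error only. No 2 libraries were identical (0 of 66 pairs). The labels give the liver as replicate, and *P*-values measure the spread between these livers. The deposited names also carry liver codes, some of which recur between groups, and what they stand for is not given. Between the ethanol groups, livers 1 and 2 matched the liver of their own replicate number best (r 0.178 and 0.133), and liver 3 did not (−0.012). In the other comparisons livers of the same number did not deviate together (r −0.088 to 0.0046). The replicate number was not used as a pairing in the main tests, and pairing by liver code was not tested.

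Alternatives were DESeq2 1.42.0, limma 3.58.1 on FPKM, other scaling, filters and sample sets, the replicate block, summed near-identical genes and leaving out each liver. The fits were tested on simulated data. Named genes were the members, the 5 genes most correlated with *Cyp4a12a* and with *Cyp4a10*, and a fixed set from the lists, and other genes were named from their lists after their values were seen. Members and lists were chosen with earlier results of these data known. Some genes of the lists are not reported here by name. Lists overlap, and the sex bias of a gene is general knowledge, all mice here being male. Sequences came from GENCODE M21 transcripts (Biopython 1.88) and figures from matplotlib 3.10.9 in Python 3.11.15.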

Additional observations from a re-analysis of the deposited data

Results flagged for a closer look

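For the members and the genes of the naming rule listed here, the effect of ethanol in *Ahr* HKO livers differed from that in WT livers by the edgeR interaction test with Benjamini-Hochberg adjustment, which passed for 22.3% of all genes. *Cyp2a4* and *Cyp2b9* also passed and are not valued here, since they were at 0 counts in WT-con, and other genes of the lists passed as well. Values are the diet effect in *Ahr* HKO minus that in WT on the log2 scale. Groups of 3 livers were not tested for outlying samples.

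Among the members, the difference was 5.13 for *Cyp4a12a* (−4.98 in WT, 0.13 in *Ahr* HKO) and 6.45 for *Cyp4a12b* (−6.28 in WT, 0.16 in *Ahr* HKO). For the genes most like *Cyp4a12a*, chosen for following it over the same livers, the difference is a description, and it was 2.58 for *Mup21*, 5.58 for *Slco1a1* (8.90 without WT-EtOH liver 3), 2.96 for *C6* and 1.89 for *Pfkfb1*. Of the male-biased genes it was 11.72 for *Hsd3b5* (13.44 without WT-EtOH liver 3), 5.02 for *Elovl3* (6.14 without WT-EtOH liver 3) and 2.27 for *Cyp7b1* (2.87 without ALKO-con liver 2). The size for *Hsd3b5* rests on few counts, with 0, 9 and 38 in WT-EtOH.

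Of the receptors and partners it was 0.93 for *Ppargc1a*, 3.20 for *Bcl6*, 1.07 for *Ghr* and −1.23 for *Ahr* itself, counted over the whole gene. The *Bcl6* call was lost without WT-con liver 1 or 2, WT-EtOH liver 1 or 2, ALKO-con liver 2 or ALKO-EtOH liver 1 or 3 (2.64 to 3.20), and its value was 3.97 without ALKO-con liver 1. The *Ghr* call was lost without WT-con liver 1 or 2, ALKO-con liver 1 or 2 or any single ALKO-EtOH liver.

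Of the lipid genes it was −1.49 for *Pdk4*, −1.56 for *Plin2* and −4.55 for *Fgf21* (−2.98 without WT-EtOH liver 3 and −5.38 without WT-con liver 2), and 0.79 for *Abcd3*, 1.56 for *Cyp4f15* and 1.02 for *Cyp4v3*. The *Pdk4* call was lost without WT-con liver 2, WT-EtOH liver 2 or ALKO-con liver 1 (−1.47, −1.20 and −1.41).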

How the results depend on the processing

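The *Cyp4a12a* and *Cyp4a12b* calls held in every alternative run, and with 3 livers a group the wide intervals of *Cyp4a14* and *Cyp4a10* limit what can be said of them. Members called numbered 3 in WT on ethanol (2 to 3 with a liver left out), 2 between genotypes on ethanol and 2 for the interaction (2 to 3). The replicate block called 1 member instead of 0 in *Ahr* HKO on ethanol (*Cyp4a32*), and the fit of all 12 livers called 1 instead of 0 between genotypes on the control diet (*Cyp4a14*). The block joined livers by replicate number alone, and it moved the all-gene count from 949 to 503 in WT on ethanol and from 149 to 243 between genotypes on ethanol. Of 480 alternative values of members, 449 kept direction and call, 23 changed sign, 6 gained and 2 lost the call, and of 1083 for other genes 151 lost it.

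Sign changes, none of a called value, were as follows, and the cause was not tested. With a liver left out, *Cyp4a32* in WT on ethanol ranged from −0.097 to 0.36. In *Ahr* HKO on ethanol the same ranges were −0.19 to 1.05 for *Cyp4a10*, −0.061 to 0.52 for *Cyp4a12a*, −0.073 to 0.52 for *Cyp4a12b*, −0.45 to 2.05 for *Cyp4a14* and −0.28 to 0.53 for *Cyp4a31*, and limma on quantile-normalized FPKM gave −0.064 for *Cyp4a12a*. Between genotypes on ethanol, *Cyp4a10* was −0.021 with upper-quartile scaling, −0.14 with the block, −0.26 with limma on quantile-normalized FPKM, −0.36 with limma on log2(FPKM + 0.1) and −0.70 to 0.31 with a liver left out, and *Cyp4a32* was −0.040 with limma on log2(FPKM + 0.1). Summing the near-identical genes, which replaces each by the sum, gave 0.99 for *Cyp4a32* between genotypes on the control diet, 0.022 for *Cyp4a31* on ethanol and −0.96 for *Cyp4a32* in the interaction.

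Over all genes, calls in WT on ethanol were 1444 with DESeq2 and 366 to 841 with a liver left out. Limma on quantile-normalized FPKM called 1777 against 3090 in *Ahr* HKO on ethanol, 1786 against 2788 between genotypes on the control diet and 80 on ethanol. On ethanol DESeq2 called 1039 (416 higher, 623 lower, against 96 and 53), all 12 livers 429 (223 and 206), limma on log2(FPKM + 0.1) 392 (78 and 314), and with a liver left out 7 to 189. With that last limma setting the split was 894 and 322 in WT on ethanol (472 and 477 in the main test) and 831 and 2702 in the interaction (1576 and 1561), and the median log2 FC of all genes was 0.16 in WT on ethanol, −0.21 between genotypes on ethanol and −0.24 in the interaction, against 0.03, −0.0076 and −0.03 in the main test. Upper-quartile scaling gave 1093 and 1679 between genotypes on the control diet. The log2 ratio of sums ranged with a liver left out from 1.17 to 2.20 in WT-con, −7.06 to −6.503 in WT-EtOH, −1.34 to 0.48 in ALKO-con and −1.75 to −0.28 in ALKO-EtOH.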
